A study of Mus musculus with 57 samples.

Results

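Binding of GATA6 late in a primitive endoderm (PrE) induction was set against binding of its paralogue GATA4. Both were mapped by CUT&RUN, in which an antibody directs a nuclease to the sites a protein occupies and the released DNA is sequenced. The members were the peaks of 4 lists, those of the 2 GATA6 libraries whose deposited peak names carry 48 h and those of the 2 GATA4 libraries of 24 h, out of 30 peak lists analysed and 57 samples in the series. Peaks that overlapped by at least 1 bp were merged, which gave 17078 regions, against 202062 when all 30 lists were merged. A region was called shared when both GATA6 lists and both GATA4 lists held a peak (1665 regions), GATA6-only when both GATA6 lists and neither GATA4 list did (1780), and GATA4-only when both GATA4 lists and neither GATA6 list did (933).

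All 4 libraries came from KH2 mouse embryonic stem (ES) cells of strain C57BL/6 that carry the transgene labelled TRE:GATA6-DSREd2, in which a doxycycline-responsive element drives GATA6 and a red fluorescent protein. The cells were kept in 2i medium and induced in serum medium with doxycycline at 1 µg/mL, and at times past 12 h the drug was withdrawn after 12 h. GATA6 could thus come from the transgene and from the cells' own gene, and GATA4 from the cells' own gene alone. The records attach the GATA6 lists named 48 h to samples recorded for 4 h, the lists named 4 h to samples recorded for 8 h, and the lists named 8 h to samples recorded for 48 h. By the record the GATA6 lists compared here would come from cells still in doxycycline. Times of GATA6 lists given here are those of the peak names, and results that depend on them are also given by the records. The GATA6 and GATA4 libraries differed in antibody and in time as well as in factor, and these cannot be told apart. The cells were 1 transgenic line. The study describes replicate experiments as independent without saying whether they began from separate cultures, so p-values measure the spread between these libraries.

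GATA6 and GATA4 belong to the GATA family of zinc finger transcription factors, whose closely similar DNA-binding domains recognise WGATAR (W stands for A or T and R for A or G). In the blastocyst GATA6 starts the PrE programme, and Gata4 and Sox17 are switched on after it, while NANOG and SOX2 maintain the alternative epiblast (Epi) fate. The PrE gives rise to the visceral and parietal endoderm, which take up maternal nutrients and lay down a thick basement membrane.

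The DNA under the strongest peaks of each class is printed to show what the classes were made of. Each sequence is plus-strand DNA of GRCm38 (mm10) that reaches 60 bases to either side of the strongest summit in the region, and capitals mark matches to WGATAR on either strand. The first 3 of each class are those with the highest fold rank. The fourth is the region of a listed gene with the highest rank, and it was chosen after the values were seen.

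Cd59a, shared, chr2:104098713-104098833: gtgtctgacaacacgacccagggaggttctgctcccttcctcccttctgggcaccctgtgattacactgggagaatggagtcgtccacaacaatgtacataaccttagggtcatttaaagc

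Pgd, shared, chr4:149158385-149158505: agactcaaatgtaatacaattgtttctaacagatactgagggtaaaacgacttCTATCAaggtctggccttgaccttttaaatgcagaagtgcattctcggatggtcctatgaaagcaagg

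Mgst2, shared, chr3:51672645-51672765: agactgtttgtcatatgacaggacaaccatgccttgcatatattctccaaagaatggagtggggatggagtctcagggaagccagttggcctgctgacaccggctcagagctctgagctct

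Gata4, shared, chr14:63283614-63283734: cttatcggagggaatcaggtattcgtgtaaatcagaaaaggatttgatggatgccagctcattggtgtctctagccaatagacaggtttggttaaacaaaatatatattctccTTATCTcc

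Ly6l, GATA6-only, chr15:75392298-75392418: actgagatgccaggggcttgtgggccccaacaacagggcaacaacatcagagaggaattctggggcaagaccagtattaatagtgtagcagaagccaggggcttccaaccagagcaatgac

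Arhgap21, GATA6-only, chr2:20930201-20930321: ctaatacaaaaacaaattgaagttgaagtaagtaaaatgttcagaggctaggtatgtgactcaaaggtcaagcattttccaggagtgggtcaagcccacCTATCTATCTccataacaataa

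Tbx19, GATA6-only, chr1:165109405-165109525: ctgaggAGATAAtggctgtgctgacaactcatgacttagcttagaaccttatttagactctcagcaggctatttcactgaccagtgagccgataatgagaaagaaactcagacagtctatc

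Cubn, GATA6-only, chr2:13496119-13496239: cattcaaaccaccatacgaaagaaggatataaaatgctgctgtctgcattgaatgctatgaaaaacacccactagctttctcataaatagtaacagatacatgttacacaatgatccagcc

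Gm10767, GATA4-only, chr13:66680896-66681016: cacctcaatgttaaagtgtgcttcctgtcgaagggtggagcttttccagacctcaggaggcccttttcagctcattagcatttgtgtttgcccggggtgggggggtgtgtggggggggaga

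Lpcat3, GATA4-only, chr6:124683836-124683956: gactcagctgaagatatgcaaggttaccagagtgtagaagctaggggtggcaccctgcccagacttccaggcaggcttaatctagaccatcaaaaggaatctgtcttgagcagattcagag

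Ostf1, GATA4-only, chr19:18608059-18608179: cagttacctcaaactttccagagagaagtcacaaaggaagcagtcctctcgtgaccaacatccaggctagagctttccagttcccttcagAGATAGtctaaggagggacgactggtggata

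Nppb, GATA4-only, chr4:147985680-147985800: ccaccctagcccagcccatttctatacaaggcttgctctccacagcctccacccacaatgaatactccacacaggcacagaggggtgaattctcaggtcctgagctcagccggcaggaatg

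In these windows a match was present in 2 of the 4 shared, 2 of the 4 GATA6-only and 1 of the 4 GATA4-only sequences. The Arhgap21 window holds 2 overlapping matches, written as 1 run of capitals. A window without capitals says only that these letters are not within 60 bases of the summit.

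The GATA6 lists held 5933 and 9767 peaks, and the GATA4 lists held 8427 and 4006. The mean was 7847.5 ± 2712 peaks (SD, n = 2) for GATA6 and 6214.5 ± 3126 for GATA4. The groups overlapped, and the log2 difference of 0.39 gave p = 0.667 in an exact two-sided permutation test, in which 2 lists against 2 cannot go below 0.333. The recovered background depth was 0.928 and 1.22 fragments per base in the GATA6 libraries and 0.989 and 1.31 in the GATA4 libraries. The median peak had 16 and 13 fragments at its summit for GATA6, and 13 and 21 for GATA4. The shortest list thus came from the library with the highest background depth. Peaks on the mitochondrial chromosome, 2 or 3 a list, were left out. The uninduced GATA6 lists of 0 h held only 84 and 880 peaks, so few regions could hold a peak of both. Both held a peak in 1 shared region and in 0 of the single-factor regions (0.00586% of all merged regions). The series lists held no uninduced GATA4 library, so the GATA4 antibody had no such background.

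Replicates of a factor shared more peaks with each other than with the other factor. Of the 5930 peaks of GATA6 replicate 1, 71.4% overlapped GATA6 replicate 2, 43.3% overlapped GATA4 replicate 1 and 34.4% overlapped GATA4 replicate 2. Of the 9765 peaks of GATA6 replicate 2, 43.1% overlapped the other GATA6 list, and 30.6% and 23.1% overlapped the GATA4 lists. The GATA4 lists showed the same order within each list: 77.9% of the 4004 peaks of replicate 2 lay in replicate 1, and 51.0% and 56.5% lay in the GATA6 lists. For GATA4 replicate 1 the overlap was 37.1% with its own replicate and 30.6% and 35.7% with GATA6, so this longest GATA4 list shared nearly as much with GATA6 replicate 2 as with its own replicate. Among the 1000 peaks of lowest q-value of each list, 98.8% and 98.4% of the GATA6 peaks were in the other GATA6 list and 71.0% to 78.4% were in a GATA4 list. The 1000 strongest GATA4 peaks were in the other GATA4 list in 90.7% and 97.4% of cases and in a GATA6 list in 74.6% to 80.1%.

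The 3 classes made up a minority of the merged regions. Shared regions were 9.75% of all, GATA6-only regions 10.4% and GATA4-only regions 5.46%. The remaining 12700 (74.4%) were held by just 1 list of at least 1 factor, and most of these, 6046 and 4717, were held by 1 list in all. Shared regions were also the widest, with a median of 558 bp against 364 bp for GATA6-only, 336 bp for GATA4-only and 208 bp for the partly reproducible regions. This width spans the peaks of all lists in a region, so it depends on the number of lists a class demands. Single GATA6 peaks had median widths of 364 and 438 bp in shared and 258 and 310 bp in GATA6-only regions. Single GATA4 peaks had 377 and 340 bp in shared and 290 and 236 bp in GATA4-only regions. A wider peak also overlaps another list more easily. Of the 4204 regions that both GATA6 lists held, 39.6% (Wilson 95% interval 38.1 to 41.1%) were in both GATA4 lists, 18.1% in 1 and 42.3% in neither. Of the 3117 regions that both GATA4 lists held, 53.4% (51.7 to 55.2%) were in both GATA6 lists, 16.7% in 1 and 29.9% in neither. Intervals of this kind cover counting error only, since regions of 1 library are not replicates. The sizes of the single-factor classes rested on the demand for both lists: with GATA6 replicate 2 alone there were 6514 GATA6-only regions and with replicate 1 alone 3149, and with GATA4 replicate 1 alone there were 5096 GATA4-only regions and with replicate 2 alone 1519.

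**Figure D1:**
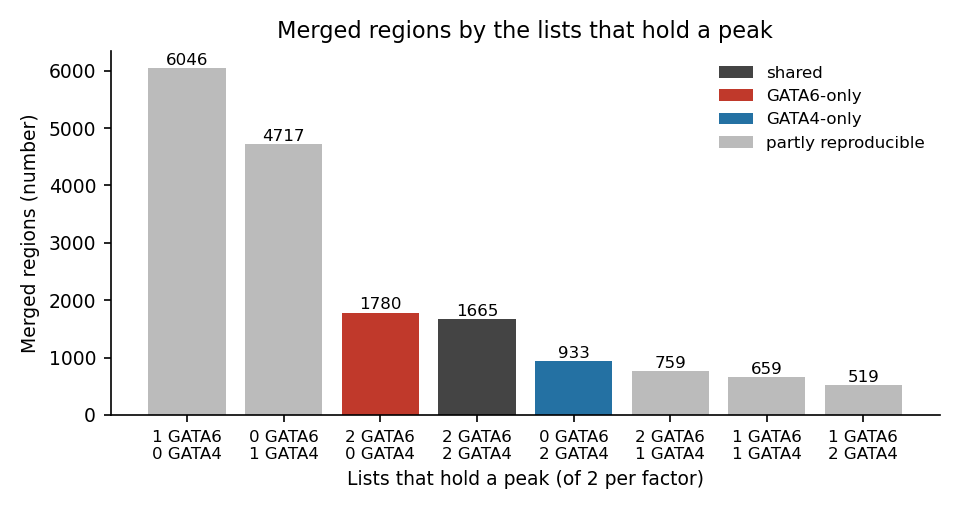
Number of merged regions (vertical axis) by how many GATA6 and GATA4 lists hold a peak (horizontal axis), with no replicate error since each bar is 1 count. Regions of 1 list, 6046 and 4717, outnumber the 1780 GATA6-only, 1665 shared and 933 GATA4-only regions.

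The class definition used presence in the lists and not peak height. Within each list, shared regions had the higher fold, the fragment number at the summit over the local background. In the GATA6 lists the median fold was 8.07 and 8.02 in shared regions and 6.10 and 5.97 in GATA6-only regions. In the GATA4 lists it was 7.59 and 6.92 in shared regions and 6.53 and 5.99 in GATA4-only regions. Both lists of each factor had the same direction, and the interquartile ranges overlapped: the upper quartile of GATA6-only regions, 7.78 and 7.74, lay above the lower quartile of shared regions, 5.91 and 5.81.

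Strong regions of either factor were most often regions of both. When the 4204 GATA6 regions were put into 5 equal groups by mean fold, 25.7% of the lowest group held a peak of both GATA4 lists, and the share was 26.3%, 34.5%, 43.8% and 67.8% in the following groups. The share without any GATA4 peak fell from 56.0% to 18.9%. For the 3117 GATA4 regions the share with both GATA6 lists was 47.8%, 45.4%, 44.8%, 56.8% and 72.3%, so it was flat over the lower 3 groups and higher in the upper 2. Even in the highest group, with a median fold of 12.7, 159 GATA6 regions had no GATA4 peak, and in the highest GATA4 group, with a median fold of 10.7, 83 had no GATA6 peak.

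**Figure D2:**
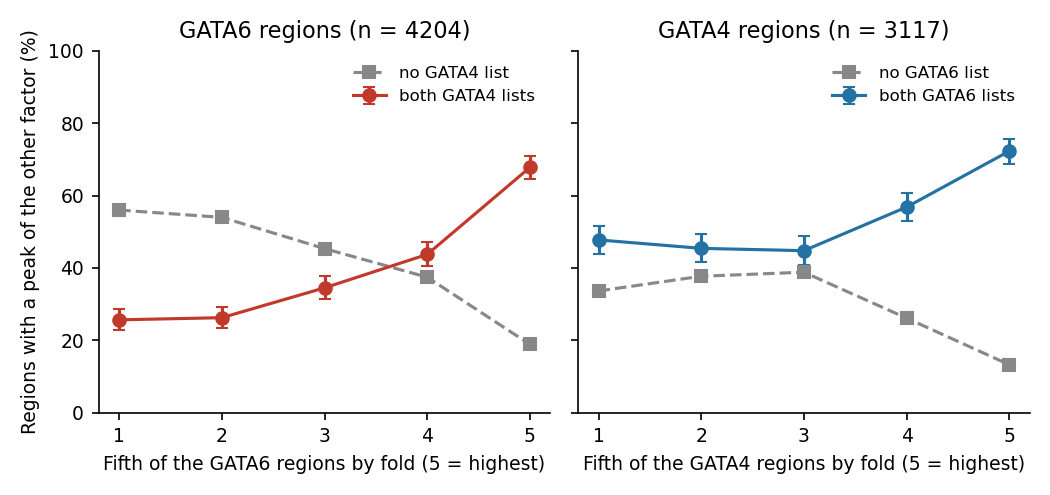
Share of GATA6 regions (left, n = 4204) and GATA4 regions (right, n = 3117) with a peak of the other factor in both or in no list (percent), by 5 equal groups of mean fold, with Wilson 95% intervals on the coloured points. The share with both lists goes from 25.7% to 67.8% for GATA6 and from 47.8% to 72.3% for GATA4.

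Within the shared regions GATA6 and GATA4 heights correlated less than the heights of replicate lists. Over the 1665 regions, log2 fold correlated with r = 0.791 between the GATA6 replicates and r = 0.687 between the GATA4 replicates, but with r = 0.176 to 0.208 between a GATA6 and a GATA4 list. These are descriptions across regions, which share libraries and sequence composition. With folds turned into ranks within the shared regions, both GATA6 ranks lay above both GATA4 ranks in 506 regions (30.4%), both lay below in 546 (32.8%), and the ranks overlapped in 613 (36.8%). The regions where GATA6 ranked above had median folds of 11.5 and 11.9 in the GATA6 lists and 5.88 and 5.44 in the GATA4 lists. Those where GATA4 ranked above had 6.06 and 6.00 in the GATA6 lists and 9.97 and 8.79 in the GATA4 lists. These folds formed the groups, so their direction follows from the ranking. The ranking did not use motifs, position or other factors. In the 2 groups 80.8% and 82.4% had a WGATAR match within 100 bp of the summit, 15.0% and 18.9% lay within 5 kb of a start site, and 94.9% and 88.6% held a peak of both SOX17 lists.

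The summits of the 2 factors lay nearly as close together as those of replicates. In the shared regions the median distance between summits was 34 bp for the GATA6 replicates and 42 bp for the GATA4 replicates, a mean of 38 ± 5.66 bp (SD over 2 pairs). For the 4 pairs of a GATA6 and a GATA4 list it was 45, 40, 48 and 48 bp, a mean of 45.2 ± 3.77 bp (SD over 4 pairs that share lists). Summits within 50 bp made up 61.0% and 55.5% of the replicate pairs and 51.0% to 56.9% of the pairs between factors. The median signed offset along the chromosome was 0 or −1 bp. In 617 shared regions the replicate summits of each factor lay within 50 bp of each other. There the GATA6 and GATA4 positions were a median of 21.5 bp apart, 78.3% lay within 50 bp, and 61 regions (9.89%) had the factors over 100 bp apart.

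**Figure D3:**
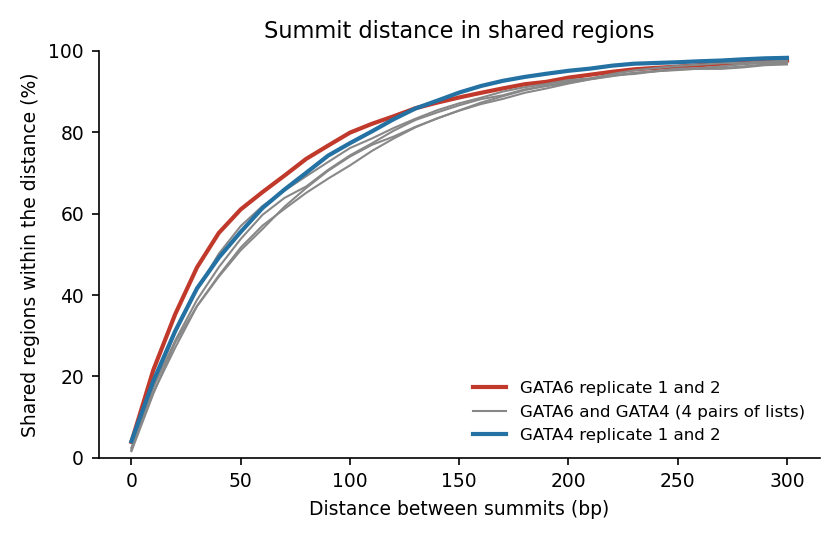
Cumulative share of the 1665 shared regions (percent) by the distance between the summits of 2 lists (bp). The 4 grey curves between factors lie close to the curve of the GATA4 replicates, with 51.0% to 56.9% against 55.5% at 50 bp, and below that of the GATA6 replicates, at 61.0%.

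GATA4-only regions lay closer to genes than the other classes. The summit was within 5 kb of a protein-coding transcription start site (TSS) in 28.0% of GATA4-only regions (25.2 to 30.9%), 16.5% of shared regions (14.8 to 18.4%) and 14.2% of GATA6-only regions (12.6 to 15.9%), and in 19.9% of all merged regions. Within 1 kb the shares were 18.3%, 6.07% and 4.33%. The median distance was 16989 bp for GATA4-only, 27183 bp for shared and 38362 bp for GATA6-only regions. Intron shares were alike, at 50.3%, 49.5% and 50.2%. The same direction held list by list: 15.9% and 17.4% of GATA6 peaks and 22.6% and 21.1% of GATA4 peaks lay within 5 kb, and these 2 pairs did not overlap. The order GATA4-only, shared, GATA6-only was kept in all 9 alternative settings tried, and the difference between the single-factor classes narrowed from −13.8 percentage points to −10.0 without GATA6 replicate 1 and to −8.00 with the lists recorded for 48 h.

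Among the 3 classes taken whole, GATA motifs were most frequent where both factors had peaks. A WGATAR match lay within 100 bp of the strongest summit in 81.7% (79.8 to 83.5%) of shared regions, 74.0% (72.0 to 76.0%) of GATA6-only regions and 64.2% (61.1 to 67.2%) of GATA4-only regions, against 59.5% of all merged regions. Windows of the same length gave 74.5% in GATA6 8 h regions, close to the GATA6-only class, and 42.9% in SOX17 24 h regions, 32.6% in NANOG 0 h regions and 24.8% in SOX2 0 h regions. The mean number of matches was 1.61 in shared, 1.41 in GATA6-only and 1.01 in GATA4-only regions, and 3 or more matches were present in 21.3%, 17.5% and 7.40%. The GATA6 8 h regions had more matches on average, 2.06, with 3 or more in 19.1%. The class shares also varied with fold. In the lowest of the 5 fold groups of GATA6 regions, 81.0% of shared and 63.3% of GATA6-only regions held a match. In the highest group the order turned, with 82.6% of shared and 87.4% of GATA6-only regions. For GATA4 regions the shared and GATA4-only shares were 79.9% and 58.6% in the lowest group, and 85.8% and 79.5% in the highest. The place of shared regions at the top did not depend on 1 library, but the order of the single-factor classes did: without GATA6 replicate 1 the difference GATA6-only minus GATA4-only was −11.0 percentage points, and without GATA6 replicate 2 the classes differed by 0.971 points, where with all lists GATA6-only was 9.84 points higher.

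GATA4-only regions near start sites held fewer motifs than those farther away. Within 5 kb of a TSS 44.1% (38.2 to 50.1%) of the 261 GATA4-only regions held a match, and farther away 72.0% (68.5 to 75.3%) of the 672 did. In shared regions the shares were 72.4% near and 83.5% far, and in GATA6-only regions 67.9% and 75.1%. The near GATA4-only regions also had a higher content of G and C, with a median of 55.7% against 50.2% for the far ones. The median GC content of the whole classes was 51.7% for GATA4-only, 47.8% for shared and 44.8% for GATA6-only regions, and its part in the motif shares was not tested.

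Other motifs differed between the classes as well. The SOX sequences ACAATG or ACAAAG were found in 45.3% of shared and 45.9% of GATA6-only regions and in 30.8% of GATA4-only regions, with 35.4% over all merged regions. The AP-1 sequence TGANTCA was in 7.39%, 7.81% and 5.04%, and in 6.87% of all. The TEAD sequence GGAATG was in 19.9%, 18.7% and 15.0%, and in 15.5% of all. Both strands were searched, and a match is a description of the letters and not of a bound factor.

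The other lists of the series did not enter the class definition, and those of GATA6 were made with the same GATA6 antibody. Both GATA6 2 h lists held a peak in 81.7% of shared, 39.6% of GATA6-only and 76.4% of GATA4-only regions, with 44.7% of all merged regions. At 4 h the shares were 86.2%, 43.8% and 73.4% (45.0% of all), and at 8 h 88.6%, 41.5% and 64.6% (40.5% of all). GATA4-only regions, which by definition had no GATA6 peak in the lists named 48 h, thus held a peak of each pair of lists named 2, 4 and 8 h more often than GATA6-only regions did. These lists were long and of unequal length, with a mean of 71018.5 peaks at 2 h and 29453 at 8 h. With every list held to its 2253 strongest peaks the 2 h lists gave 25.9%, 4.78% and 10.5%, while the 8 h lists gave 37.7%, 5.22% and 9.0%. At 8 h the order of the classes was thus the same, and the difference between the single-factor classes dropped from −23.2 to −3.78 percentage points. By the records the lists named 8 h are those of 48 h, and 64.6% of GATA4-only regions held a peak of both.

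Most shared regions were also SOX17 regions. SOX17, a PrE factor downstream of GATA6, had a peak in both 24 h lists in 90.9% of shared, 51.6% of GATA6-only and 65.4% of GATA4-only regions, and in 43.4% of all. With the 2253 strongest peaks of each list the shares were 31.7%, 8.26% and 10.6%. SOX2 in uninduced ES cells was most frequent in GATA4-only regions, at 30.9%, against 17.8% of shared and 7.98% of GATA6-only regions and 13.6% of all. With 2253 peaks per list the SOX2 shares were 4.39%, 4.32% and 1.63% in this order, so GATA4-only and shared regions then differed by less than their counting intervals. NANOG at 0 h was found in 9.97% of shared, 4.16% of GATA6-only and 10.6% of GATA4-only regions (5.14% of all). In this new order, kept for the values that follow, NANOG at 2 h was found in 45.6%, 18.1% and 39.5% (21.1% of all). At 8 h, where the NANOG lists held 5506 and 2253 peaks, the NANOG shares were 5.53%, 1.18% and 2.47% (1.38% of all), and SOX2 was found in 55.9%, 16.3% and 32.0% (18.6% of all), against 37.7%, 15.4% and 35.2% at 2 h (18.5% of all). Each class difference of this kind was descriptive, since the regions come from 4 libraries.

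**Figure D4:**
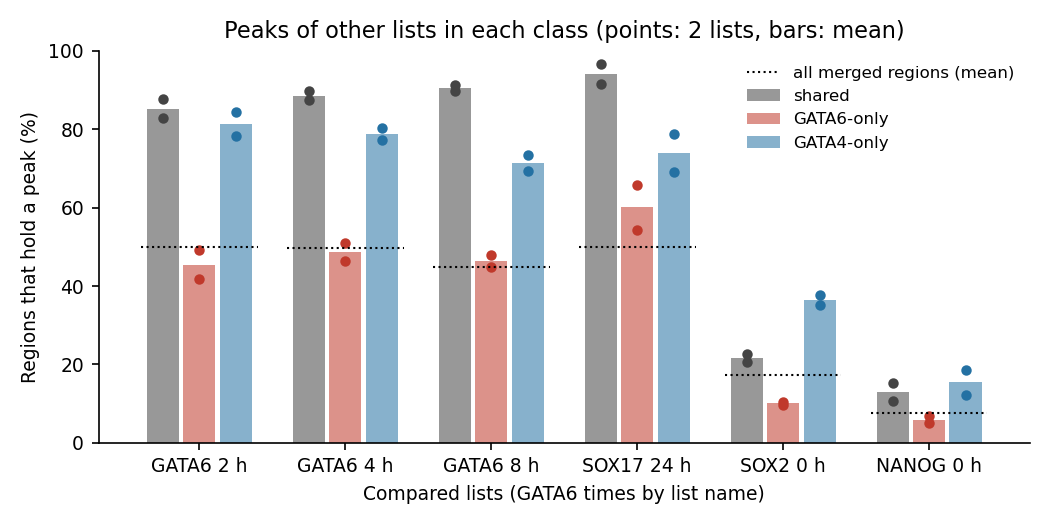
Share of shared, GATA6-only and GATA4-only regions (percent) that hold a peak of each compared list, with 1 point per list, bars at the mean of 2 lists and dotted lines at the mean over all merged regions. GATA6-only regions are the lowest bar in each of the 6 sets, and GATA4-only regions the highest for SOX2 and NANOG at 0 h.

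Shared and GATA4-only regions seldom lacked a peak in the other GATA6 lists, while GATA6-only regions lacked one as often as all merged regions. None of the 6 GATA6 lists of 2, 4 and 8 h held a peak in 680 GATA6-only regions (38.2%), 83 shared regions (4.98%) and 84 GATA4-only regions (9.0%), against 37.9% of all merged regions. All 6 held one in 31.6% of GATA6-only, 78.3% of shared and 58.4% of GATA4-only regions, against 33.9% of all. By the records the lists compared here are of 4 h, and of the 6 lists only those of 2 h would be earlier. Neither 2 h list held a peak in 48.7% of GATA6-only, 11.2% of shared and 13.6% of GATA4-only regions and in 44.6% of all. Of the 83 shared regions without a peak in the 6 lists, 95.2% held a peak of both SOX17 lists and 65.1% held a SOX match. In the 1303 shared regions with a peak in all 6 lists the shares were 92.1% and 43.1%, so for SOX17 they lay close together. The 680 GATA6-only regions without a peak in the 6 lists had a WGATAR match in 65.9% and SOX17 in both lists in 34.0%. In the 563 GATA6-only regions with a peak in all 6 lists these shares were 78.9% and 71.6%. These properties were not used to form the classes, and no test across regions was made.

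Overlap with GATA4 was followed over the GATA6 lists named 2, 4, 8 and 48 h, as shares of the GATA4 regions and of the GATA6 peaks. The 8 GATA6 lists held a peak in 86.1% and 81.1% of the 3113 regions that both GATA4 lists gave when merged on their own at 2 h, in 83.8% and 86.9% at 4 h, in 83.3% and 85.4% at 8 h and in 59.0% and 64.4% at 48 h. The 48 h lists were the lowest, and the means were 83.6 ± 3.54%, 85.4 ± 2.18%, 84.4 ± 1.54% and 61.7 ± 3.84% (SD, n = 2). An exact permutation test of the 8 lists among the 4 times gave p = 0.114 (adjusted over the 2 measures 0.114), where the smallest p possible is 0.00952. The call depended on which GATA4 regions were taken: the exact p was 0.0476 with the regions of GATA4 replicate 1 alone and with all merged GATA4 regions, and 0.114 with those of replicate 2 alone. In the other direction, 3.35% and 4.01% of the GATA6 peaks lay in a GATA4 region at 2 h, 5.39% and 4.94% at 4 h, 9.01% and 8.72% at 8 h, and 31.0% and 20.5% at 48 h. The means of 3.68 ± 0.473%, 5.17 ± 0.321%, 8.87 ± 0.204% and 25.8 ± 7.42% differed, with exact permutation p = 0.00952 (adjusted 0.0190), the smallest the design can give.

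The lists shortened over this course from 79356 and 62681 peaks at 2 h to 5930 and 9765 at 48 h, and list length moved both shares. With 5930 peaks taken from every list, GATA4 regions with a GATA6 peak went up in place of down, from 39.4 ± 0.182% at 2 h to 46.3 ± 1.16%, 51.0 ± 1.29% and 58.8 ± 0.363% (SD, n = 2), with no overlap between time points and exact permutation p = 0.00952. The share of GATA6 peaks in a GATA4 region was then 20.3, 23.9, 26.4 and 30.8% with the same exact p. The strongest GATA6 peaks therefore lay in GATA4 24 h regions more often in the later lists, by list name. By the times of the records the order is broken, since the lists with the highest share, 31.0% and 20.5% of all peaks, then stand at 4 h.

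**Figure D5:**
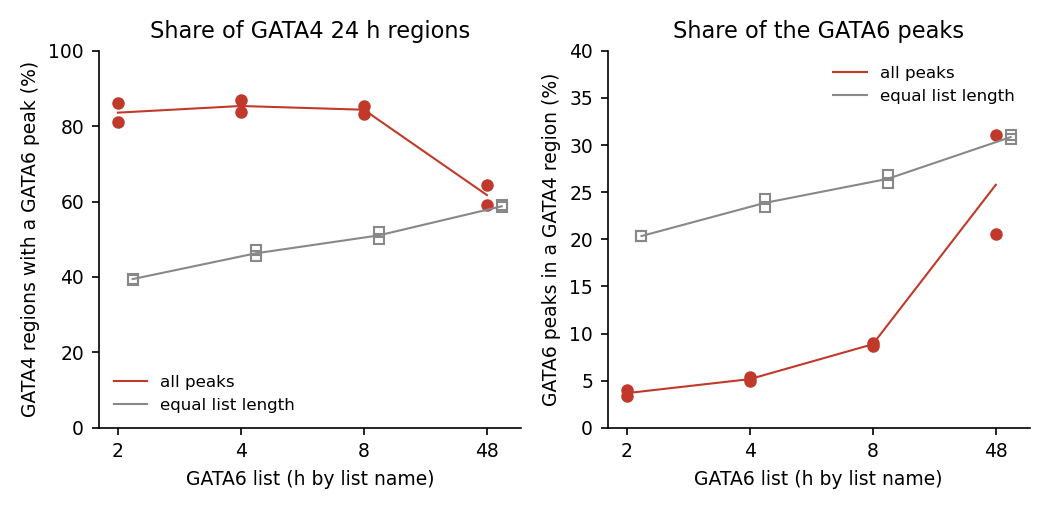
Share of the 3113 GATA4 24 h regions that hold a GATA6 peak (left, percent) and share of GATA6 peaks in a GATA4 region (right, percent) by the time in the list name, with 1 point per list and lines through the means of 2 lists. With all peaks (red) the left share is 61.7% at 48 h against 83.6 to 85.4% before, and with 5930 peaks per list (grey squares, drawn slightly to the right) it goes from 39.4% to 58.8%.

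Nearest genes were then compared, with each region assigned to the nearest protein-coding TSS within 50 kb of its summit. Of 21924 protein-coding genes, 943 (4.30%) had a shared region, 928 (4.23%) a GATA6-only region and 650 (2.96%) a GATA4-only region, while 32.0% had a region of any kind in the 4 lists. Of the genes in these sets, 149 had both a shared and a GATA6-only region (15.8% and 16.1% of the sets), 68 a shared and a GATA4-only region (7.21% and 10.5%), and 34 a GATA6-only and a GATA4-only region (3.66% and 5.23%). Most genes of a set were thus in 1 set, although each overlap was above the share of all genes in the class. Of 570 PrE genes that the study took from embryo data, 120 (21.1%) had a shared region, 104 (18.2%) a GATA6-only region and 37 (6.49%) a GATA4-only region. Of 218 Epi genes the numbers were 21 (9.63%), 16 (7.34%) and 12 (5.50%). The PrE and the Epi shares were both above that of all genes in each class. The PrE share was the higher of the 2 for shared and GATA6-only regions, and for GATA4-only regions the 2 shares lay close together. Genes differ in how much sequence lies nearest to them, and no set test was made.

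Most PrE transcription factors had a shared region. Of 8 genes, 6 had a shared region (all genes 4.30%), 4 a GATA6-only region (all genes 4.23%) and 0 a GATA4-only region (all genes 2.96%). With so low a share over all genes, a count of 0 GATA4-only regions in this or a following short list is no result about its genes. At Gata4 a region 11982 bp upstream of the TSS had folds of 25.7 and 20.8 in the GATA6 lists and 17.0 and 9.49 in the GATA4 lists, so both factors occupied the gene of one of them. A further Gata4 region, in an intron 6339 bp downstream, had folds of 9.34 and 15.7 for GATA6 and 3.47 and 4.78 for GATA4. Gata6 had 3 shared regions. The one 546 bp inside the gene had folds of 6.91 and 4.99 for GATA6 and 7.05 and 5.88 for GATA4, and reads that the transgene may add there were not separated.

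Sox17 had a region 40289 bp upstream with folds of 5.36 and 6.41 for GATA6 and 13.4 and 11.6 for GATA4. Its region 22732 bp downstream of the TSS had 13.0 and 12.1 for GATA6 and 7.76 and 9.27 for GATA4. Foxq1, a forkhead factor, had a shared region 24591 bp upstream with folds of 12.3 and 17.2 for GATA6 and 12.6 and 15.9 for GATA4. Foxa2, a forkhead pioneer factor, combined 2 shared regions with 3 GATA6-only regions, the strongest 33408 bp from the TSS with folds of 11.8 and 8.74. Sox7 had a region in both GATA6 lists and 1 GATA4 list, and the single Hnf4a region, 108 bp upstream of the TSS, was a peak of GATA4 replicate 1 alone with a fold of 5.19.

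In the wider GATA family 4 of 8 genes had a shared region, 1 a GATA6-only region and 0 a GATA4-only region. Zfpm1, which encodes the GATA cofactor FOG1, had 3 shared regions that differed in balance. The one 31447 bp from the TSS had folds of 17.8 and 16.0 for GATA6 and 2.89 and 5.28 for GATA4, and the one at 12262 bp had 9.29 and 4.43 for GATA6 and 12.7 and 10.9 for GATA4. Gata2 had a shared region 3039 bp upstream with folds of 10.5 and 6.74 for GATA6 and 4.64 and 7.44 for GATA4. Gata5 and Zfpm2 had no region in any of the 4 lists.

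Of 10 receptor and signalling genes of the PrE, 4 were in the shared class, 3 in the GATA6-only class and 0 in the GATA4-only class. Pdgfra, the PDGF receptor that marks the PrE, had 4 shared regions between 5774 and 33530 bp upstream. The one at 8411 bp had folds of 21.3 and 21.1 for GATA6 and 9.51 and 9.63 for GATA4. A GATA6-only region lay 855 bp upstream, with folds of 7.04 and 4.21. Fgfr3, an FGF receptor, had a shared region 1138 bp upstream with folds of 20.8 and 24.6 for GATA6 and 9.23 and 9.27 for GATA4. Dkk1, a secreted WNT inhibitor, had 3 shared regions, and Frzb, a secreted WNT antagonist, had a GATA6-only region 27138 bp upstream with folds of 11.3 and 7.50. Ihh, a hedgehog ligand, was in the shared class and Bmp2, a BMP ligand, in the GATA6-only class. Cer1, a secreted inhibitor of Nodal, had a region 1159 bp upstream in both GATA4 lists, with folds of 9.54 and 5.02, and in GATA6 replicate 2 alone, with a fold of 5.46.

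Genes of endocytosis, the uptake function of visceral endoderm, had 4 of 5 members in the shared class, 3 in the GATA6-only class and 0 in the GATA4-only class. Cubn, the cubilin receptor, had a GATA6-only region 4366 bp upstream with folds of 17.4 and 15.4, the highest rank of a listed gene in that class. Its shared region, 2159 bp into the gene, was lower, with 6.71 and 6.98 for GATA6 and 3.59 and 3.21 for GATA4. Lrpap1, the chaperone of the LDL receptor family, had 2 shared and 3 GATA6-only regions, one of the latter 8270 bp upstream with folds of 14.7 and 14.6. Lrp2, the megalin receptor, had a shared region 3108 bp into the gene with folds of 5.53 and 2.70 for GATA6 and 10.9 and 6.32 for GATA4. Amn, the partner of cubilin, had a shared region with folds that spread widely between replicates, 5.04 and 11.7 for GATA6 and 6.43 and 3.18 for GATA4.

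Of 12 basement membrane genes, 7 had a shared region, 5 a GATA6-only region and 2 a GATA4-only region. Lamc1, the laminin gamma chain, had 4 shared regions. The one 44131 bp upstream had folds of 20.3 and 19.8 for GATA6 and 4.85 and 5.19 for GATA4. The one 11822 bp into the gene had 4.10 and 6.53 for GATA6 and 12.2 and 8.54 for GATA4. These 2 regions of 1 gene thus ranked in opposite order in the lists of the 2 factors. Lama1, the laminin alpha chain of parietal endoderm, had a shared region 13706 bp upstream with folds of 19.4 and 16.5 for GATA6 and 3.69 and 4.13 for GATA4. Serpinh1, a collagen chaperone, had one 852 bp upstream with 13.5 and 16.1 for GATA6 and 3.76 and 3.14 for GATA4. Lamb1, the laminin beta chain, had 3 GATA6-only regions with folds between 3.44 and 6.18. P4ha2, a collagen hydroxylase, had a shared region with folds of 4.77 and 3.08 for GATA6 and 9.45 and 7.70 for GATA4. It also had 2 GATA4-only regions with folds of 5.67 to 7.20. Lama5, another laminin alpha chain, had a GATA4-only region 11846 bp upstream with folds of 4.56 and 9.21.

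Of 9 serum protein genes of later visceral endoderm, 1 had a shared region (Ttr, transthyretin, with folds of 8.01 and 9.20 for GATA6 and 7.20 and 6.36 for GATA4), 2 a GATA6-only region (Apoa4 and Apoe, apolipoproteins) and 0 a GATA4-only region. A region of any kind was near 33.3% of them, against 32.0% of all genes. The other genes of the list, among them Afp and Apoa1, had no region in any of the 4 lists.

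Of 16 pluripotency genes, 2 had a shared region, 3 a GATA6-only region and 3 a GATA4-only region. Klf5, a Krüppel-like factor, had a shared region 33206 bp from the TSS with folds of 12.1 and 16.6 for GATA6 and 4.13 and 6.72 for GATA4, and a GATA4-only region at 41721 bp with folds of 5.79 and 6.81. Klf4, of the same family, had a shared region with 9.53 and 8.35 for GATA6 and 10.9 and 4.77 for GATA4, and a GATA4-only region with 6.12 and 6.95. Esrrb, an orphan nuclear receptor of ES cells, had a GATA4-only region in an intron 42541 bp from the TSS with folds of 5.23 and 6.03. Pou5f1, Prdm14 and Tbx3 had GATA6-only regions. Nanog and Sox2 had no region of any class. Nanog had 2 regions held by both GATA6 lists and GATA4 replicate 2, of which the one 37535 bp from the TSS had folds of 7.19 and 5.46 for GATA6 and 5.88 for GATA4. Sox2 had 2 regions, both of GATA4 replicate 1 alone, with folds of 4.72 and 3.26. The GATA4-only regions of these genes had all held a GATA6 peak in both lists at 2 h and at 8 h. Of all GATA4-only regions 76.4% and 64.6% did, so so few regions are no result about these genes.

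Genes of other lineages served as a comparison. Of 8 trophectoderm genes, Elf5 had 3 GATA6-only regions, with folds of 8.39 and 8.53 in the one 5500 bp upstream, and Tead4 had 2 GATA4-only regions. Of 11 heart genes, where GATA4 is a known regulator, Tbx5 had a shared region, Nkx2-5 a GATA6-only region and Nppb, the gene of a natriuretic peptide, a GATA4-only region 48 bp upstream of its TSS with folds of 8.04 and 9.48. Nppb was the GATA4-only region of a listed gene with the highest rank. Of 6 neural genes 0 had a region of any of the 3 classes, whose shares of all genes were 4.30%, 4.23% and 2.96%. A region of any kind in the 4 lists was near 5 of the 8 trophectoderm genes (62.5%) and 5 of the 11 heart genes (45.5%). It was near 3 of the 6 neural genes (50%), against 32.0% of all genes.

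The regions with the highest fold ranks were mostly at genes outside these lists. The first shared region lay in an intron, 2972 bp downstream of the TSS of Cd59a, a complement inhibitor, with folds of 52.4 and 63.1 for GATA6 and 31.2 and 30.8 for GATA4. At Pgd, an enzyme of the pentose phosphate pathway, the folds were 33.0 and 31.1 for GATA6 and 24.6 and 25.6 for GATA4, and at Mgst2, a glutathione transferase, 28.4 and 29.5 for GATA6 and 26.97 and 24.4 for GATA4. Replicates lay close together at Pgd and Mgst2, and the GATA6 replicates lay farther apart at Cd59a. The first GATA6-only region, 57099 bp upstream of Ly6l, had folds of 20.2 and 28.4, and the next, in an intron 38620 bp downstream of the Arhgap21 TSS, 21.0 and 19.1. The first GATA4-only regions had GATA4 folds of 16.0 and 13.6 at a region far upstream of Gm10767 and 13.3 and 15.0 at Lpcat3, a phospholipid acyltransferase. At Ostf1 they were 14.7 and 13.2. Each of these 3 GATA4-only regions had held a GATA6 peak in all 6 lists of 2, 4 and 8 h. So had the GATA6-only region at Arhgap21, while the Ly6l region had held one in 1 of the 6. Over the whole classes 58.4% of GATA4-only and 31.6% of GATA6-only regions had a peak in all 6. Among the first 10 GATA4-only regions the one nearest to a TSS was that of Zdhhc24, 45 bp upstream, with folds of 14.5 and 11.6.

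Most genes of a class had 1 region of it. Of the 943 genes with a shared region, 118 had at least 2, and these numbers were 88 of 928 for GATA6-only and 36 of 650 for GATA4-only regions. Lamc1, Pdgfra and Scgb1a1 were among those with 4. Scgb1a1, a secretoglobin, had its highest shared region 37398 bp from the TSS, with folds of 16.3 and 20.9 for GATA6 and 9.81 and 10.7 for GATA4. In the GATA6-only class 13 genes had 3 regions, among them Foxa2, Lamb1, Lrpap1, Elf5 and Klf6, and 0 had more. In the GATA4-only class 3 genes had 3: Bend5, Rhbdf2 and Def8. The Def8 regions had folds of only 1.56 to 1.95, and they span up to 2559 bp, while the highest Rhbdf2 region had 11.7 and 10.9. Bend5 also had a GATA6-only region, 1955 bp from the TSS, with folds of 6.09 and 10.2.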

How the data were processed

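CUT&RUN peak lists of 4 libraries were compared, with 26 further lists of the series for context. The authors aligned paired-end reads to mm10 with Bowtie2, removed blacklisted regions with SAMtools, kept duplicates and called narrow peaks with MACS for each library against a control antibody library. The deposited fold (a ratio of fragments at the summit to local background) and the deposited −log10 p and −log10 q values are the authors' own, and all q-values were at most 0.05. The GATA6 lists are named merged and the GATA4 lists filtered, and the steps behind these words were not given in the sources used here. Among the GATA6 sample titles only those recorded for 48 h carry the word merged, which the lists named 48 h also carry. Lists hold no read totals. Background fragments per base were recovered from fold and −log10 p, with whole fragment numbers for 99.85 to 100% of the GATA6 48 h and GATA4 peaks within 0.05%. The GATA4 pileups had been scaled, by 0.861 and 0.670.

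Groups came from the sample titles, except that the time of GATA6 lists was taken from the peak names. Peaks overlapping by 1 bp were merged, and the classes are defined in the report. Distances ran from the summit of the strongest peak to the nearest protein-coding TSS (GRCm38.p6, GENCODE vM21), and motifs were counted within 100 bp of it. Shares carry Wilson 95% intervals. Peak number was compared by an exact permutation test of 2 lists against 2, and the shares over time by exact permutation tests with F over 8 lists, with Benjamini-Hochberg adjustment over 2 tests. Scripts used Python 3.11.15, pandas 2.3.3, scipy 1.17.1 and pysam 0.24.0 and were tested on simulated peaks.

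The rule for named genes took those of the marker lists with a region, the nearest genes of the 10 regions per class with the highest fold rank and the genes with most regions, with up to 30 given with values. The text gives values for more than 30 and names some listed genes without a region, and which ones was chosen after their values were seen. Members and lists were chosen with earlier results of these data known. PrE and Epi genes came from the study's embryo lists, with 570 of 579 and 218 of 221 symbols matched. Replicate numbers did not pair the libraries: over the 1665 shared regions, deviations of same-numbered libraries correlated with r = 0.0372. Alternatives were other q-value limits, list lengths, overlaps, windows, distances and time assignments, and leaving out each list. The values of 1 gene and of some sequence motifs are not reported here.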

Additional observations from a re-analysis of the deposited data

How the results depend on the processing

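Over 125 alternatives of 20 results, 61 changed neither direction nor call by more than the spread, 56 moved a value further, 5 turned a direction, 2 made a call and 1 ended one; the causes were not tested except where the setting itself removes peaks or lists. Leaving out 1 list at a time gave a log2 peak number difference of −0.15 (without GATA4 replicate 2) to 0.93, 1947 to 6514 GATA6-only and 1107 to 5096 GATA4-only regions, fold ratios of shared over single-factor regions of 1.24 to 1.59 (GATA6) and 1.13 to 1.34 (GATA4), summit distances of 42.5 to 50.5 bp, TSS differences (GATA6-only minus GATA4-only) of −12.2 to −10.0 percentage points, motif differences of −11.0 (without GATA6 replicate 1) to 22.7 points, and changes at 48 h in GATA4 regions with a GATA6 peak of −28.5 to −20.0 points. With −log10 q of at least 5 there were 974 shared and 516 GATA4-only regions, fold ratios of 1.29 and 1.11, a summit distance of 38.4 bp, a motif difference of 5.25 points, and differences of −32.7 (GATA6 2 h), −18.4 (GATA6 8 h), −16.3 (SOX2 0 h) and −15.0 points (NANOG 2 h) in the other lists. Equal list length was set separately for each kind of result. With 4004 peaks in each of the 4 lists there were 1073 GATA6-only regions, fold ratios of 1.24 and 1.13 and a summit distance of 41.2 bp. With 2253 peaks in each of the other lists the differences were −5.73, −6.25 and −3.78 (GATA6 2, 4 and 8 h), −2.35 (SOX17), −2.77 (SOX2 0 h) and −3.17 points (NANOG 2 h). With 5930 peaks in each GATA6 list the share of GATA4 regions at 48 h turned to 13.2 points above the earlier lists. With 10000 peaks per list, chosen after seeing the data, the differences were −18.8, −17.9, −14.7, −12.1 (SOX2 0 h) and −9.89 points (NANOG 2 h). With the lists recorded for 48 h there were 2529 shared, 16405 GATA6-only and 378 GATA4-only regions, a GATA6 fold ratio of 1.59, a summit distance of 54.2 bp and a TSS difference of −8.00 points, and by recorded times the changes over time turned to 7.47 and −2.68 points. A peak in either list gave 3602, 7826 and 5650 regions. A 50 bp window gave a motif difference of 4.78 points. Within 10 kb, 15, 11 and 2 listed genes had a region, against 27, 22 and 7 within 50 kb, and any TSS within 50 kb gave 11 for GATA4-only. All merged GATA4 regions gave −29.4 points with an exact permutation p = 0.0476.

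With replicate number as a block the changes at 48 h were −22.7 points (exact permutation p = 0.208) and 19.9 points (exact p = 0.0417, the smallest the block allows, and 0.0833 adjusted over the 2 measures, so this call was lost), and the peak number difference was 0.39 (exact p = 1). Depth limits the lists: a peak needed at least 7 fragments at its summit in 3 of the 4 libraries and 11 in GATA4 replicate 2, so a region without a peak may hold binding below these numbers. The order of the classes by TSS distance held under every setting tried, that by motif under every one except leaving out GATA6 replicate 1.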

Other observations

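Where the earlier GATA6 lists did hold a peak, its height differed between the classes. At 8 h the median peak in shared regions had a percentile rank of fold within its list of 86.9 and 88.4, against 69.3 and 69.2 in GATA6-only and 65.6 and 68.2 in GATA4-only regions. At 2 h the percentiles were 90.5 and 89.3 in shared, 76.0 and 75.7 in GATA6-only, and 83.2 and 78.0 in GATA4-only regions. The 2 h and 8 h values follow the list names, and the gaps between the classes of a single factor at 8 h were of the size of the spread between replicates. NANOG, the epiblast factor, had a peak of both 4 h lists in 37.5% of shared, 11.6% of GATA6-only and 20.9% of GATA4-only regions, with 12.6% of all merged regions.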
